A study of Mus musculus with 8 samples.

Results

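The genes through which a macrophage handles iron and heme were examined in adipose tissue macrophages, as a set of 10: Hmox1, Blvrb, Fth1, Ftl1, Slc40a1, Cp, Tfrc, Slc11a2, Slc11a1 and Ireb2. They were taken by symbol from the 2 tables of gene expression deposited with the study, with earlier results of these data known. All 10 were found in both, out of 17740 genes in the high-fat diet (HFD) table and 16436 in the normal diet (ND) table. Macrophages positive for CD45, CD11b and F4/80 were sorted from the epididymal white adipose tissue (eWAT) of male WT mice (C57BL/6J). The mice were on ND or on HFD for 8 weeks, started at 6 weeks of age. Adhesion-related macrophages (ARMs) came from the floating adipocyte layer, freed by vortexing with beads, and stromal vascular fraction macrophages (SMs, labelled NARM) came from the pellet without that step, so cell type and vortexing cannot be told apart. The 8 RNA-seq libraries fall into 4 groups of 2, and pools of 6 animals on HFD or 10 on ND made up a library. The labels do not say whether the 2 libraries of a group came from separate pools of mice, so p-values measure only the spread between these libraries, which may be technical.

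Macrophages clear worn red cells and dying cells and return their iron to the body. Heme is opened by heme oxygenase 1 (Hmox1), which frees iron, carbon monoxide and biliverdin, and biliverdin reductases turn the pigment into bilirubin. Iron that is not used is stored inside ferritin, a shell of heavy (Fth1) and light (Ftl1) chains, or leaves through ferroportin (Slc40a1). Cells that need iron take up transferrin through the transferrin receptor (Tfrc). In adipose tissue, macrophages with a high iron content have been described, and iron is thought to pass between them and adipocytes.

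Much of this control acts on the RNA itself. When iron is scarce, the iron regulatory proteins, one of which is encoded by Ireb2, bind a hairpin called the iron-responsive element. In front of a coding sequence the bound hairpin blocks translation, and behind the coding sequence of Tfrc it protects the RNA from decay. The mouse reference transcripts (GENCODE M21, build GRCm38) of the 10 genes were searched on the sense strand for an unpaired C, 5 stem bases, the loop CAGTGN and 5 bases that pair back with the stem, with G opposite T allowed. A match was found in 4 of the 10 genes and in 294 of 21877 protein-coding genes (1.34%). The pattern was written after the known element, so these counts are a description and not a test of the members. The sites are shown because, among the members with a match, the place differs. A site in the 5′ UTR can change protein with no change in RNA, while those of Tfrc act on its RNA level. The strict pattern can miss elements of another shape, so it does not sort the remaining members. The loop is in capitals.
Fth1 (5′ UTR, chr19:9982733-9982760, plus strand): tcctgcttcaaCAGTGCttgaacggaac
Ftl1 (5′ UTR, chr7:45459779-45459806, minus strand): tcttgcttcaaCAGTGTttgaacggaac
Slc40a1 (5′ UTR, chr1:45925465-45925492, minus strand): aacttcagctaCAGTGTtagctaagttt
Tfrc (3′ UTR, chr16:32631220-32631247, plus strand): attatcggaagCAGTGCcttccataatt
Tfrc (3′ UTR, chr16:32631599-32631626, plus strand): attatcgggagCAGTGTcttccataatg
Tfrc (3′ UTR, chr16:32631664-32631691, plus strand): tatatcggagaCAGTGAtctccatatgt
Tfrc (3′ UTR, chr16:32631711-32631738, plus strand): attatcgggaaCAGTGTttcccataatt
No match was found in the other members, which says only that these letters are not in these transcripts. Protein was not measured in these tables.

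The libraries held 14508824 to 19040133 estimated counts, and the 10 genes took 1.99% to 2.32% of the total TPM, a level scaled to the library and corrected for gene length. The 9 macrophage markers summed to 22051 to 26678 TPM in every library and none was called between ARMs and SMs in either diet. Adipocyte markers were present in the ARM libraries, where 8 of 10 were called higher than in SMs of HFD mice and 6 of 9 tested in ND mice. Calls between ARMs and SMs needed both a change of more than 1.5-fold and an adjusted p below 0.05 (edgeR's quasi-likelihood test on counts with Benjamini-Hochberg adjustment over all genes tested). In bulk samples, fewer cells of a type and less RNA per cell cannot be told apart.

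The 10 genes spanned a wide range of levels. On the TPM scale Ftl1 stood highest, at rank 4 or 5 of all genes in every library, followed by Fth1 at rank 10 to 16 and Hmox1 at rank 32 to 53. Blvrb (385 to 485 TPM) and Slc11a1 (267 to 324 TPM) came next. In the HFD libraries the order went on with Slc11a2, Tfrc, Cp, Slc40a1 and Ireb2, and no library of a gene overlapped one of its neighbours in that order. In the ND libraries Slc11a2, Tfrc and Cp overlapped one another, and Slc40a1 (72.9 to 85.3 TPM) and Ireb2 (24.4 to 28.3 TPM) stood apart below them.

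**Figure D1:**
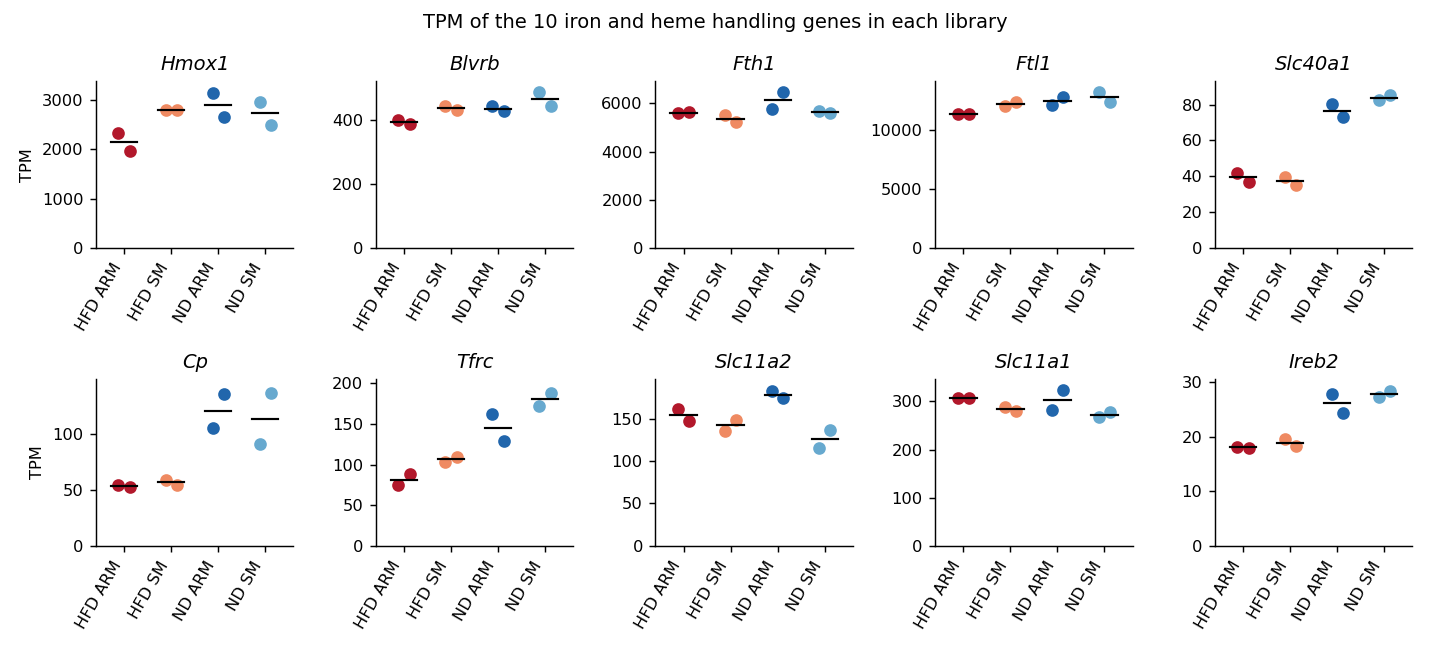
TPM of each gene (y axis, from 0, own scale per gene) in the 2 libraries of each group (points), with the group mean as a bar. Slc40a1, Cp, Tfrc and Ireb2 sit lower in all 4 HFD libraries than in all 4 ND libraries, while ARMs and SMs of one diet lie close together.

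ARMs were set against SMs to ask whether macrophages attached to adipocytes differ in the RNA levels of these genes, which do not measure how iron is handled. None of the 10 genes was called in HFD mice, against 4.75% of the 13337 genes tested there, and none in ND mice, against 3.68% of 12441 genes. DESeq2 called none of them either. At an unadjusted p under 0.05 there were 3 members in HFD mice and 2 in ND mice, against 23.2% and 14.9% of all genes. With adjusted p under 0.05 and no fold threshold, a criterion added after the data were seen, Hmox1 and Tfrc were lower in ARMs of HFD mice and Slc11a2 was higher in ARMs of ND mice, against 9.55% and 4.73% of all genes. The 95% interval of the fold change lay inside 1.5-fold in both directions for all 10 genes in HFD mice and for 9 of 10 in ND mice, Slc11a2 being the exception. Hmox1 and Tfrc in HFD mice and Tfrc in ND mice were only just inside, with lower limits of 0.675, 0.677 and 0.671 times the SM level. The members' median absolute log2 fold change was 0.11 in HFD mice and 0.13 in ND mice, and that of all genes was 0.13 in both. In counts scaled by library size and TMM factors (scaled counts), ARM and SM libraries did not overlap for 7 members in HFD mice and 6 members in ND mice, against 52.7% and 44% of all genes.

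**Figure D2:**
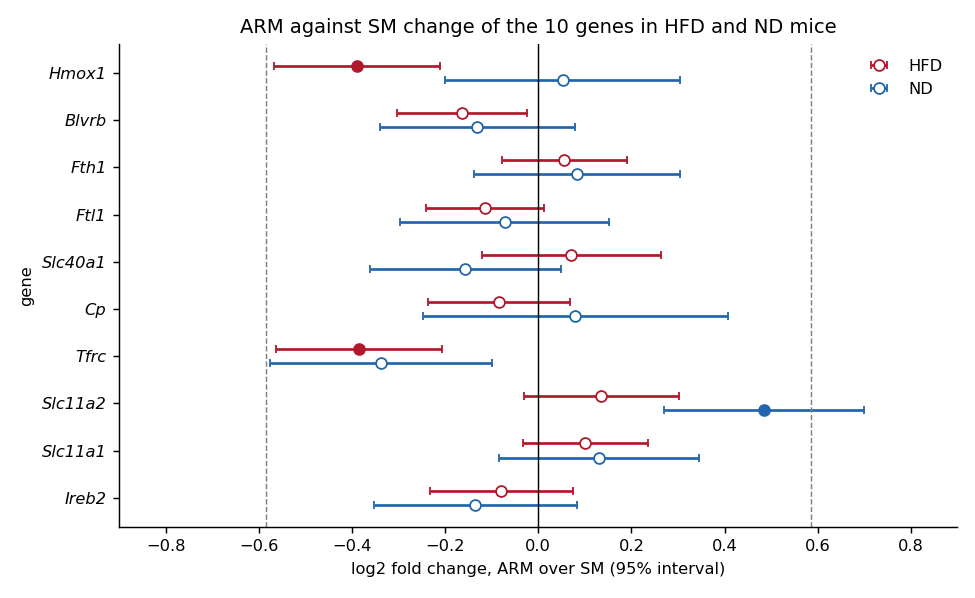
Log2 fold change of ARMs over SMs for each gene in HFD (red) and ND (blue) mice, with 95% intervals from edgeR; filled points have an adjusted p under 0.05 and dashed lines mark 1.5-fold. Only the ND interval of Slc11a2 crosses a dashed line.

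Of the heme-degrading enzymes, Hmox1 (Entrez ID 15368, chr8:75093618-75100593 in GRCm38, as for all positions given) was lower in ARMs of HFD mice by adjusted p alone. It stood at 2331 and 1966 TPM in ARMs and at 2788 and 2804 TPM in SMs. Neither ARM library reached the SM libraries, and the level in ARMs was 0.76 times that in SMs (log2 fold change -0.39 ± 0.08 SE, adjusted p = 0.0134, edgeR). Without HFD ARM replicate 2, the lower of the pair, the log2 fold change was -0.26 and the adjusted p was 0.172. In ND mice Hmox1 stood at 3133 and 2659 TPM in ARMs and at 2960 and 2503 TPM in SMs. These groups overlapped (log2 fold change 0.05 ± 0.12 SE, adjusted p = 0.905, edgeR).

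Hemoglobin transcripts, a sign of red cell RNA, moved the opposite way from Hmox1 in HFD mice. Of 9 erythroid markers, 6 were tested there and 4 were called higher in ARMs, and the list summed to 243 and 299 TPM in ARMs against 144 and 112 TPM in SMs. The called markers were the globins Hba-a1, Hba-a2, Hbb-bs and Hbb-bt, whose near-identical copies share reads. Alas2 and Epor were tested and not called (log2 fold change 0.22 and -0.09, adjusted p = 0.864 and 0.560, edgeR). The sums include Epor, at 31.0 to 31.6 TPM in HFD ARMs and 32.2 to 33.9 TPM in HFD SMs. The red cell membrane gene Slc4a1 was at 0 TPM in 3 of the 4 HFD libraries and at 0.03 TPM in HFD ARM replicate 1. In ND mice none of 5 tested erythroid markers was called, and the list summed to 97.5 and 176 TPM in ARMs and to 134 and 142 TPM in SMs. The part of red cell RNA in the Hmox1 result was not tested.

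Blvrb (Entrez ID 233016, chr7:27447978-27465981), which reduces biliverdin and flavins, passed in neither diet. It stood at 399 and 385 TPM in HFD ARMs and 443 and 430 TPM in HFD SMs, and at 441 and 426 TPM in ND ARMs and 485 and 441 TPM in ND SMs. ARM libraries lay below SM libraries in both diets, with log2 fold changes of -0.16 ± 0.06 and -0.13 ± 0.10 SE and adjusted p-values of 0.145 and 0.626 (edgeR).

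The ferritin chains were the most abundant members, and neither passed between ARMs and SMs. Fth1 (Entrez ID 14319, chr19:9980600-9985111), the chain that oxidises iron as it enters the shell, stood at 5577 and 5622 TPM in HFD ARMs and 5492 and 5210 TPM in HFD SMs. In ND mice it stood at 5765 and 6463 TPM in ARMs and 5691 and 5581 TPM in SMs. Its log2 fold change was 0.06 ± 0.06 SE in HFD mice and 0.08 ± 0.10 SE in ND mice (adjusted p = 0.654 and 0.805, edgeR).
Ftl1 (Entrez ID 14325, chr7:45457944-45459886), the chain that helps the iron core to form, stood at 11367 and 11318 TPM in HFD ARMs and 12014 and 12393 TPM in HFD SMs. In ND mice it stood at 12122 and 12797 TPM in ARMs and 13233 and 12343 TPM in SMs, with overlapping groups. Its log2 fold change was -0.12 ± 0.06 SE in HFD mice and -0.07 ± 0.11 SE in ND mice (adjusted p = 0.262 and 0.837, edgeR). The counts of Ftl1 were not whole numbers in either table, so its reads had been shared with near-identical sequences and its level is uncertain, while those of Fth1 were whole in both.

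The balance of the chains was also compared. The TPM ratio of Ftl1 to Fth1 was 1.98 to 2.10 in the 4 ARM libraries and 2.19 to 2.38 in the 4 SM libraries, with no overlap. This ratio was chosen after its values were seen and is given as a description with no test, and it carries the uncertainty in the level of Ftl1.

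Neither export gene passed between the cell types. Slc40a1 (Entrez ID 53945, chr1:45908070-45926532), the exporter itself, stood at 41.9 and 37.1 TPM in HFD ARMs and 39.6 and 35.1 TPM in HFD SMs (log2 fold change 0.07 ± 0.09 SE, adjusted p = 0.696, edgeR). In ND mice it stood at 80.4 and 72.9 TPM in ARMs and 82.3 and 85.3 TPM in SMs (log2 fold change -0.16 ± 0.10 SE, adjusted p = 0.525, edgeR). The cell types overlapped in HFD mice and were apart in ND mice, but within the spread that the test allows.
Cp (Entrez ID 12870, chr3:19956933-20009750) encodes ceruloplasmin, a copper enzyme that oxidises iron so that transferrin can bind it. It stood at 54.8 and 52.2 TPM in HFD ARMs and 59.0 and 54.8 TPM in HFD SMs, and at 105 and 136 TPM in ND ARMs and 90.9 and 137 TPM in ND SMs. The groups overlapped in both diets, with log2 fold changes of -0.08 ± 0.07 and 0.08 ± 0.15 SE (adjusted p = 0.526 and 0.884, edgeR).

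Tfrc (Entrez ID 22042, chr16:32608896-32632794) had both ARM libraries below both SM libraries in each diet. In HFD mice it stood at 74.9 and 88.5 TPM in ARMs and 104 and 109 TPM in SMs. The level in ARMs was 0.77 times that in SMs (log2 fold change -0.39 ± 0.08 SE, adjusted p = 0.0144, edgeR). Without HFD ARM replicate 1 the log2 fold change was -0.27 and the adjusted p was 0.171. In ND mice Tfrc stood at 162 and 129 TPM in ARMs and 173 and 188 TPM in SMs. The difference did not pass (log2 fold change -0.34 ± 0.11 SE, adjusted p = 0.117, edgeR). Dividing cells are known to make more Tfrc. The 5 proliferation markers summed to 109 and 126 TPM in HFD ARMs and 80.8 and 103 TPM in HFD SMs, and 1 of the 5 was higher in ARMs by adjusted p alone. In ND mice they summed to 89.0 and 78.8 TPM in ARMs and 56.7 and 68.2 TPM in SMs. There too 1 of the 5 was higher in ARMs by adjusted p alone. The part of cell division in the Tfrc result was not tested.

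Of the metal transporters, Slc11a2 was higher in ARMs of ND mice by adjusted p alone. Slc11a2 (DMT1, Entrez ID 18174, chr15:100387898-100424209) moves ferrous iron out of the endosome after transferrin has released it. In ND mice it stood at 182 and 174 TPM in ARMs and 115 and 136 TPM in SMs. Both ARM libraries lay above both SM libraries, the level being 1.40 times as high (log2 fold change 0.48 ± 0.10 SE, adjusted p = 0.0103, edgeR). Leaving out ND SM replicate 2 raised the log2 fold change to 0.60 (adjusted p = 0.0050), past the fold threshold. Leaving out ND SM replicate 1 gave 0.37 (adjusted p = 0.224) and leaving out ND ARM replicate 2 gave 0.50 (adjusted p = 0.0807). In HFD mice it stood at 161 and 147 TPM in ARMs and 135 and 149 TPM in SMs, with overlap (log2 fold change 0.13 ± 0.07 SE, adjusted p = 0.324, edgeR).
Slc11a1 (NRAMP1, Entrez ID 18173, chr1:74375014-74386057) moves metal ions out of the phagosome, and the C57BL/6 allele is known to encode a protein that does not work. It stood at 308 and 307 TPM in HFD ARMs and 289 and 280 TPM in HFD SMs, and at 283 and 324 TPM in ND ARMs and 267 and 278 TPM in ND SMs. ARM libraries lay above SM libraries in both diets, by log2 fold changes of 0.10 ± 0.06 and 0.13 ± 0.10 SE that did not pass (adjusted p = 0.367 and 0.639, edgeR). The HFD counts of Slc11a1, Slc11a2 and Cp were not whole numbers, so part of their reads was assigned by estimate there.

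Ireb2 (Entrez ID 64602, chr9:54862658-54912534), the iron regulatory protein that iron removes by degradation, was the least abundant member. It stood at 18.1 and 18.0 TPM in HFD ARMs and 19.6 and 18.2 TPM in HFD SMs, and at 27.8 and 24.4 TPM in ND ARMs and 27.3 and 28.3 TPM in ND SMs. The ND groups overlapped in TPM and not in scaled counts. Its log2 fold change was -0.08 ± 0.07 SE in HFD mice and -0.14 ± 0.10 SE in ND mice (adjusted p = 0.558 and 0.629, edgeR).

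Whether the ARM against SM change differed between the diets was tested for every gene in one fit of all 8 libraries. It differed for 0.165% of 13358 genes, and for none of the 10 members (2 of them had an unadjusted p under 0.05, against 7.61% of all genes). Hmox1 came nearest, with a log2 change 0.46 lower in HFD mice than in ND mice (difference -0.46, 95% interval -0.80 to -0.11, unadjusted p = 0.0129, adjusted p = 0.423, edgeR). Slc11a2 followed (difference -0.37, 95% interval -0.65 to -0.08, adjusted p = 0.440, edgeR). For Tfrc the difference was -0.07 (95% interval -0.40 to 0.26). The Hmox1 result in HFD mice and the Slc11a2 result in ND mice are therefore not shown by this test to be particular to one diet.

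The larger contrast lay between the diets, and it is given as values with no test. The counts of the 2 tables were made differently: 32.3% to 32.9% of genes in the HFD libraries had counts that were not whole, against 8.55% to 9.36% in the ND libraries. The gene length implied by FPKM was 1.03 to 1.18 times longer in the HFD table for the 10 members. Diet and table cannot be told apart.

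Slc40a1, Cp, Tfrc and Ireb2 stood lower in HFD than in ND mice in both cell types, with no overlap of libraries in TPM or in scaled counts. The ND level of Slc40a1 was 1.94 times the HFD level in ARMs and 2.25 times in SMs, in TPM. For Cp the ratio was 2.25 in ARMs and 2.0 in SMs. For Tfrc it was 1.78 and 1.70, and for Ireb2 it was 1.45 and 1.47. Across all genes the median log2 ratio of HFD to ND was -0.10 in ARMs and -0.08 in SMs, and 5% of genes lay below -0.73 and -0.70. Slc40a1 (-0.96 and -1.17), Cp (-1.17 and -1.0) and Tfrc (-0.83 and -0.76) lay beyond these marks in both cell types, and Ireb2 (-0.53 and -0.56) did not.

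Hmox1 had an ND level 1.35 times the HFD level in ARMs, with no overlap, and 0.98 times in SMs, where the libraries overlapped. Slc11a2 had an ND level 1.16 times the HFD level in ARMs and 0.89 times in SMs. The ferritin chains and Blvrb were near the median of all genes, with ND levels 1.05 to 1.11 times the HFD levels in TPM, and this direction turned on scaled counts. Slc11a1 had ND levels 0.99 and 0.96 times the HFD levels. By TPM the libraries of the 2 diets did not overlap for 9 of 10 members in ARMs and 6 of 10 in SMs, against 71.5% and 71.7% of all genes. On scaled counts it was 7 of 10 in each cell type, so the count depends on the scale. Of these, 6 were lower and 1 higher on HFD in ARMs, and 4 were lower and 3 higher in SMs. The shares of all genes are for TPM only.

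**Figure D3:**
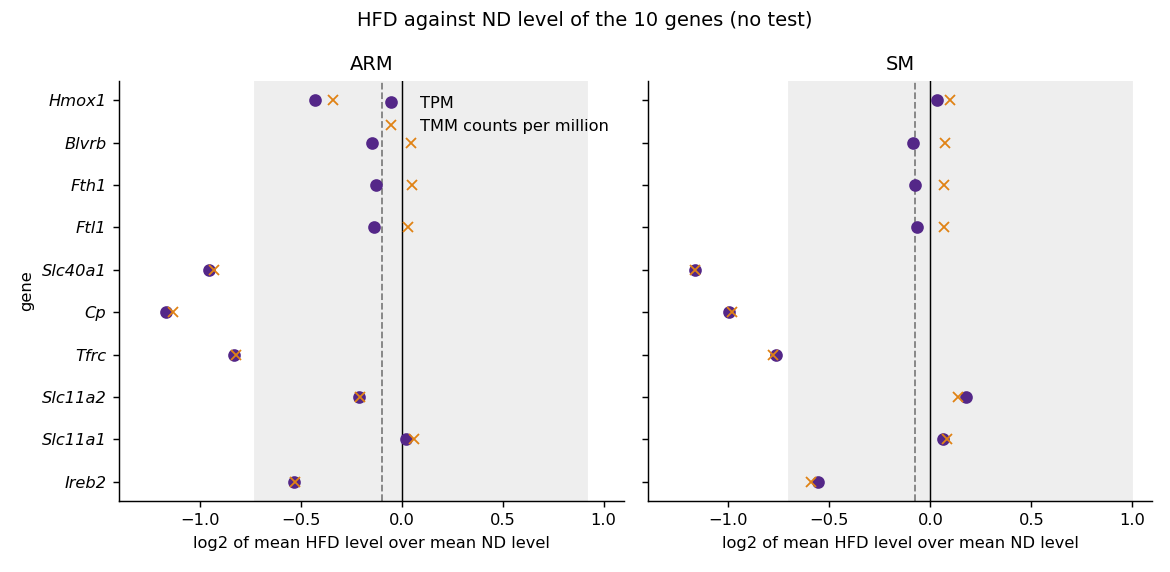
Log2 ratio of the mean HFD level to the mean ND level for each gene in ARMs and SMs, from TPM (dots) and scaled counts (crosses); the grey band spans the central 90% of all genes and the dashed line is their median. Slc40a1, Cp and Tfrc lie left of the band in both panels.

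The wider iron and heme system was read from a list of 60 other genes. In HFD mice 57 were in the table and 52 were tested, of which 2 were called, against 4.75% of all genes. Both were higher in ARMs. In ND mice 55 were in the table and 50 were tested, of which 5 were called, against 3.68% of all genes. All 5 were higher in ARMs. Calls among all genes went mostly the same way, with 595 higher and 39 lower in ARMs of HFD mice. In ND mice 442 were higher and 16 lower. By adjusted p with no fold threshold 5 more genes passed in HFD mice and 0 more in ND mice. Of all genes, 9.55% and 4.73% passed that criterion, called genes included. The median log2 fold change of the list was -0.02 in HFD mice and 0.03 in ND mice, and that of all genes was -0.01 and -0.02. For the difference between diets none of the 52 genes tested was called by edgeR, though 8 had p below 0.05 before adjustment, against 7.61% of all genes.

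Of the genes for heme and hemoglobin uptake, Hp was called in both diets. Hp encodes haptoglobin, which binds free hemoglobin and is made by liver and fat. It stood at 23.3 and 26.5 TPM in HFD ARMs and 6.35 and 5.33 TPM in HFD SMs, 4.22-fold higher (95% interval 3.37 to 5.29, adjusted p = 2.7e-05, edgeR). In ND mice it stood at 35.9 and 49.6 TPM in ARMs and 20.5 and 18.1 TPM in SMs, 2.16-fold higher (adjusted p = 0.000881, edgeR). Cd163, the macrophage receptor for hemoglobin bound to haptoglobin, was lower in ARMs of HFD mice by adjusted p alone. It stood at 868 and 741 TPM in ARMs and 1047 and 1053 TPM in SMs there, 0.76 times the level in SMs (adjusted p = 0.0107, edgeR), and in ND mice the log2 fold change was -0.16 (adjusted p = 0.542, edgeR). Cd163 was chosen for naming after its values were seen.

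Of the uptake genes, 3 were called, all in ND mice. Scara5, a receptor for ferritin, stood at 7.97 and 13.1 TPM in ND ARMs and 3.93 and 4.93 TPM in ND SMs, 2.32-fold higher (adjusted p = 0.0028, edgeR). Without ND ARM replicate 2 its log2 fold change was 0.82 and the adjusted p 0.0665. Steap4, a metalloreductase that prepares iron for transport, stood at 44.1 and 52.7 TPM in ND ARMs and 23.8 and 29.0 TPM in ND SMs, 1.80-fold higher (adjusted p = 0.000685, edgeR). In HFD mice Steap4 was 1.29-fold higher and passed by adjusted p alone (0.0124, edgeR). Steap2, of the same family, rested on few reads, with 17 and 28 counts in ND ARMs and 2 and 5 in ND SMs (6.30-fold, 95% interval 2.63 to 15.1, adjusted p = 0.0164, edgeR). Its call was lost without ND ARM replicate 2, ND SM replicate 1 or ND SM replicate 2 (adjusted p = 0.236, 0.294 and 0.0566).

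Bmp6 and Spic were the other genes called. Bmp6, the signal that drives hepcidin in the liver, stood at 2.20 and 1.81 TPM in HFD ARMs and 1.05 and 1.03 TPM in HFD SMs, 1.92-fold higher (adjusted p = 0.0489, edgeR). Its call was lost when any of the 4 HFD libraries was left out (adjusted p = 0.106 to 0.297, edgeR). Spic, a transcription factor that heme induces in macrophages, stood at 38.4 and 41.0 TPM in ND ARMs and 23.0 and 28.7 TPM in ND SMs. It was 1.502-fold higher, just past the threshold (adjusted p = 0.0263, edgeR), and it lost the call without ND ARM replicate 1, ND ARM replicate 2 or ND SM replicate 1. In HFD mice Spic was 1.19-fold higher (adjusted p = 0.0947, edgeR).

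In the other roles no gene was called, and for 3 of them the gene with the largest change is given. Of heme synthesis it was Alas1, the rate-limiting enzyme, 1.32-fold higher in HFD ARMs (adjusted p = 0.0059, edgeR). Of storage and ferritin turnover it was Ncoa4, the receptor that delivers ferritin to the lysosome, at 0.82 times the SM level in HFD ARMs (adjusted p = 0.0137, edgeR). Both passed by adjusted p alone, as did Fbxl5, the ubiquitin ligase subunit that removes iron regulatory proteins when iron is plentiful, also at 0.82 times the SM level in HFD ARMs (adjusted p = 0.0204, edgeR). Fbxl5 was named after its values were seen. Of heme degradation it was Hmox2, the constitutive heme oxygenase, with a log2 fold change of -0.23 in ND mice (adjusted p = 0.258, edgeR).

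**Figure D4:**
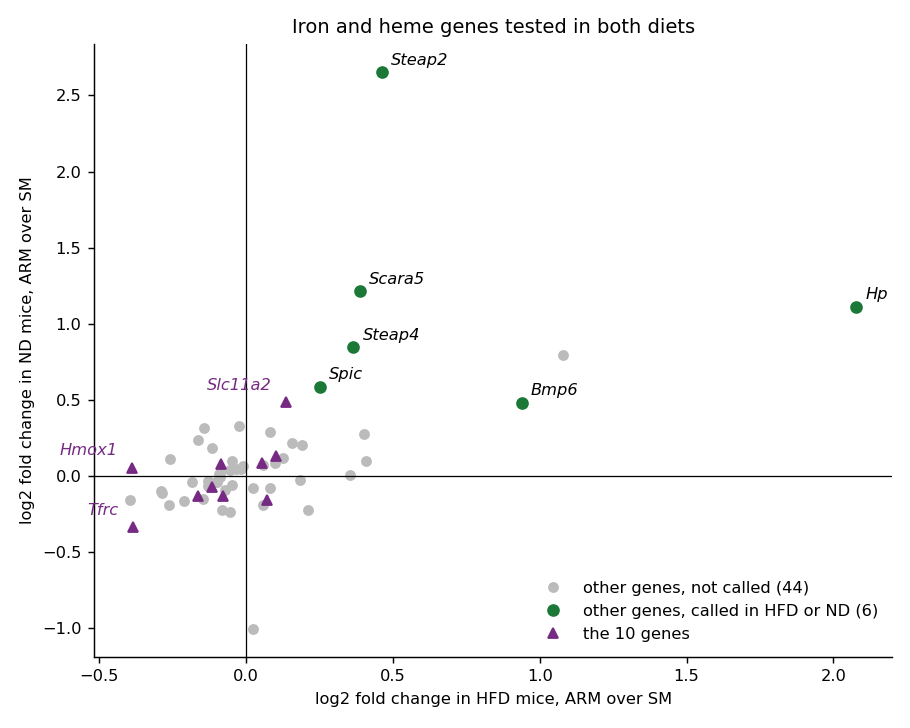
Log2 fold change of ARMs over SMs in HFD (x axis) and ND (y axis) mice for the 50 other iron and heme genes tested in both diets (circles, the 6 called in green and named) and the 10 genes of the report (triangles). The called genes lie to the upper right, and the 10 genes lie near the origin.

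Markers of several other cell types, though not of all, stood higher in the same libraries as the 6 called genes. The 10 adipocyte markers summed to 1111 and 1233 TPM in HFD ARMs against 474 and 394 TPM in HFD SMs, and to 531 and 804 TPM in ND ARMs against 308 and 414 TPM in ND SMs. Fabp4 was the largest part of these sums, with group means of 824 and 254 TPM in HFD ARMs and SMs. In ND ARMs and SMs its means were 351 and 204 TPM. Adipoq was far lower, with means of 30.6 and 4.21 TPM in HFD ARMs and SMs. The 7 fibroblast and progenitor markers summed to 336 and 416 TPM in HFD ARMs against 249 and 224 TPM in HFD SMs, and to 437 and 638 TPM in ND ARMs against 146 and 206 TPM in ND SMs. Of the latter list 5 of 7 were called higher in HFD ARMs and 6 of 7 in ND ARMs. Pi16 of that list went the other way in HFD mice and was not called (log2 fold change -0.44, adjusted p = 0.157, edgeR). Endothelial markers were called higher in ARMs for 6 of 7 genes in HFD mice (78.1 and 74.9 against 32.8 and 22.5 TPM, summed) and 1 of 7 in ND mice (20.6 and 40.3 against 15.8 and 18.96 TPM). Mesothelial markers were called for 0 of 6 genes in HFD mice (33.9 and 24.1 against 28.7 and 15.7 TPM, summed) and 5 of 6 in ND mice (35.4 and 47.6 against 10.5 and 14.1 TPM). No marker of these 4 lists was at 0 in any library. Neutrophil markers went the other way in ND mice, with 21.7 and 64.6 TPM in ARMs against 119 and 95.7 TPM in SMs, summed. Of the 3 tested there, 1 was called lower in ARMs. In HFD mice they summed to 20.4 and 23.8 against 13.6 and 11.8 TPM, and none was called. No tested T and NK or B marker was called in either diet. The part of such RNA in the changes of these genes was not tested.

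**Figure D5:**
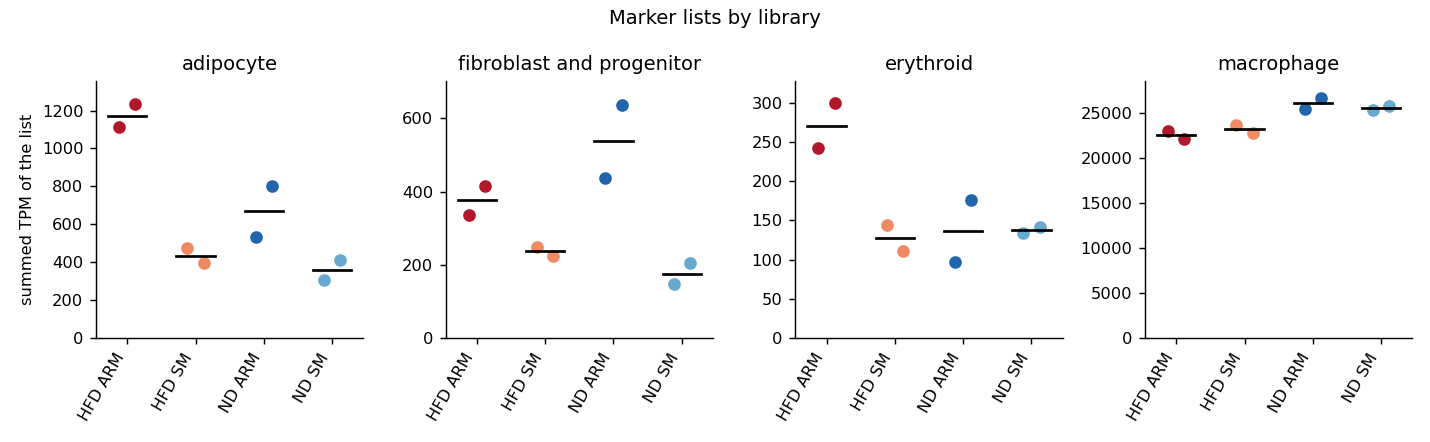
Summed TPM (y axis, from 0) of the adipocyte, fibroblast and progenitor, erythroid and macrophage marker lists in each library (points), with group means as bars. Adipocyte and fibroblast sums are higher in ARMs of both diets, the erythroid sum is higher in HFD ARMs alone, and the macrophage sum is nearly level. Fabp4 is the largest part of the adipocyte sum.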

How the data were processed

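RNA of sorted ARMs and SMs was sequenced by the study, with 8 libraries in all. The table of each diet, as deposited by the authors, gives every gene an estimated count, an FPKM and a TPM in each library, where the estimated count assigns reads that match several genes in part to each. Their notes name the build mm10, and the aligner, counter and annotation are not given in the sources used here. The deposited average columns were not used. Estimated counts were rounded and fitted per diet with edgeR 4.0.16 in R 4.3.3 (filterByExpr, TMM, quasi-likelihood test, Benjamini-Hochberg over all genes tested). The difference between diets was an interaction term in one fit of 8 libraries, over genes in both tables. Standard errors came from the fold change and its F statistic. With 2 libraries against 2, an exact two-sided permutation test of one gene cannot go below p = 0.333. Replicates differed by more than sampling noise (mean chi-square per gene 4.21 to 10.1, where noise alone gives 1). Reads carried no stated molecular identifiers, so counting precision covers counting error only.

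The members and lists were chosen with earlier results of these data known. Named genes are the 10 members, each other listed iron or heme gene that was called, and for a role with none called the gene of largest absolute log2 fold change. Some items covered by these rules are not reported here. Alternatives were DESeq2 1.42.0, limma 3.58.1 on log2(FPKM + 1), other normalizations, filters and thresholds, one fit of 8 libraries, a replicate block, and leaving out each library. Data were simulated with 200 genes changed by a log2 fold change of 1 or 2 in either direction. Every gene was given the same dispersion, a measure of the spread between replicates, unlike the real data. Of the changed genes, 93% (HFD, 13337 genes) and 98.5% (ND, 12441 genes) were recovered, with 1 and 4 false calls. Recovery of smaller changes was not tested. These include the differences of the 10 members, all below 1.5-fold, and the called changes of Steap4, Bmp6 and Spic. Figures were drawn with matplotlib 3.10.9 in Python 3.11.15.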

Additional observations from a re-analysis of the deposited data

How the results depend on the processing

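The count of called members was 0 in both diets under every alternative of normalization, filter, test and fit and under the threshold of the study's methods. It was 2 in HFD mice and 1 in ND mice by adjusted p alone, and 0 to 1 in ND mice when a library was left out. The count for the difference between diets was 0, and 1 (Hmox1, -0.47, adjusted p = 0.0296) with the replicate block. The other iron and heme genes called in HFD mice were 2, against 1 with no filter on low counts, DESeq2, limma, one fit of 8 libraries, the replicate block and each library left out (1 to 1), and 7 by adjusted p alone. In ND mice they were 5, against 3 with DESeq2, 2 with limma and 2 to 4 with a library left out. Over all genes the calls ran from 181 to 1274 in HFD mice (634 as reported) and from 188 to 888 in ND mice (458), and from 0 to 187 for the difference (22).

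The replicate numbers share no stated animal or day, and with 2 pairs the correlation of deviations was 0.02 in HFD and 0.28 in ND mice. The replicate block changed the all-gene calls to 673, 786 and 187. It left Hmox1 and Tfrc past an adjusted p of 0.05 in HFD mice, and brought Tfrc past it in ND mice (adjusted p = 0.000696). The adjusted p of Hmox1 and Tfrc in HFD mice was 0.133 and 0.132 with no filter, 0.0631 and 0.0624 with limma, and 0.0628 and 0.0557 in one fit of 8 libraries. That of Slc11a2 in ND mice was 0.0629 with limma. The cause was not tested.

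Small changes turned direction. Where a group keeps 1 library, that library is assumed to vary like the others. With a library left out the log2 fold change ran from -0.024 to 0.17 for Slc40a1 in HFD mice, and in ND mice from -0.076 to 0.19 for Hmox1, -0.0054 to 0.16 for Fth1, -0.18 to 0.38 for Cp and -0.62 to 1.13 for Bmp6. The difference between diets ran from -0.21 to 0.15 for Tfrc, -0.087 to 0.054 for Fth1, -0.038 to 0.17 for Ireb2, -0.100 to 0.047 for Blvrb, -0.47 to 0.11 for Cp, -0.11 to 0.070 for Slc11a1 and -0.090 to 0.020 for Ftl1. With library totals it was 0.0060 for Fth1 and 0.0036 for Slc11a1.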
